A study of Homo sapiens and Mus musculus with 92 samples.

Results

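Gangliosides are glycosphingolipids that carry sialic acid, and they are built by adding 1 sugar at a time to ceramide in the Golgi. The 10 genes described here are those of the enzymes that make them and of a sialidase that trims them: UGCG, B4GALT5, B4GALT6, ST3GAL5, ST8SIA1, ST8SIA5, B4GALNT1, B3GALT4, ST3GAL2 and NEU3. They are 10 of the 28103 genes listed in each of the 2 RNA-seq count tables of the study, and were found by gene symbol. The set was chosen by a measured value, since ST8SIA1 was among the largest rises after AF9 KD, and the other 9 genes were added because their products act in the same pathway. Values from AF9 KD are therefore given for these genes as a description with no p value, and MLL1 KD is the comparison in which they were tested.

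UGCG adds glucose to ceramide, and B4GALT5 and B4GALT6 add galactose to the product to form lactosylceramide. ST3GAL5 adds the first sialic acid to give GM3, the precursor of most gangliosides, and ST8SIA1 adds another to give GD3, which opens the b-series. B4GALNT1 turns GM3 and GD3 into GM2 and GD2, so ST8SIA1 and B4GALNT1 act on the same substrate, and B3GALT4, ST3GAL2 and ST8SIA5 extend the chains further. ST8SIA1 and its products are best known from neuroectodermal cells and the tumors that arise from them, and GM3 is the main ganglioside of many blood cells.

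All libraries are from HEL cells, an established human erythroleukemic line that carries no rearrangement of MLL1. In the MLL1 experiment 3 libraries of control cells were compared with 3 of MLL1 KD cells, and in the AF9 experiment 2 libraries of control cells were compared with 2 of AF9 KD cells, and the controls of the 2 experiments are different libraries. KD cells had received 1 lentiviral shRNA each, MLL1 shRNA #1 or AF9 shRNA #1. The labels call the control cells WT, and the methods of the study name a control shRNA, and describe selection with puromycin after transduction. MLL1 is encoded by KMT2A and writes histone H3 lysine methylation, and AF9 is encoded by MLLT3 and is a subunit of the super elongation complex. Every KD value rests on a single target sequence, and both are given here as the sense strand of the mRNA.
MLL1 shRNA #1: gcactgttaaacattccactt
AF9 shRNA #1: ttcaaagcctcacaaattaat
The first lies in the coding sequence of KMT2A at chr11:118474149-118474169 (hg38, + strand, exon 3 of 36), and the second in that of MLLT3 at chr9:20414247-20414267 (- strand, exon 5 of 11). The longest stretch that any transcript of the 10 genes shared with the AF9 target was 11 bases, in ST3GAL5, and 9 bases was the longest with the MLL1 target. A match to the seed of the AF9 guide (AAATTAA in the 3′ UTR, pairing with guide positions 2 to 8 if the guide starts at the last base of the target) occurred in 29.0% of 11645 tested genes, and among the 10 genes in ST8SIA1, ST8SIA5, B4GALT6, ST3GAL2 and UGCG. The part of such matches in the changes was not tested.

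Total counts were 6966345 to 10380241 per library in the MLL1 experiment and 12278989 to 14232408 in the AF9 experiment. For one gene across libraries the unit is CPM, a count divided by its library's TMM-scaled total and set to a fixed total for all libraries, and levels of different genes are compared as TPM, which also divide by the length of the merged exons. A gene was tested when its mean TPM over an experiment was at least 1, and called when its fold change was at least 1.5 and its adjusted p value was under 0.05. KMT2A was at 63.5% of its control level in MLL1 KD cells, going from 1291 ± 32.9 to 820 ± 11.9 CPM (SD, n = 3 each), and MLLT3 fell to 18.6% in AF9 KD cells, from 537 ± 14.6 to 99.9 ± 10.4 CPM (SD, n = 2 each). The exact two-sided permutation p values were 0.1 and 0.333, the smallest that 3 against 3 and 2 against 2 libraries allow. In edgeR's quasi-likelihood test the adjusted p values were 0.0724 for KMT2A, or 3.4e-07 with the replicate block, and 3.2e-08 for MLLT3. Of 12 erythroid markers 11 reached 1 CPM in each experiment, as did 6 of 7 megakaryocyte markers, and of the neuroectodermal markers SOX10 had no count in any library. Replicate 1 of both groups of the MLL1 experiment stood apart. Its counts differed from those of the other replicates of its group by 31.6 to 60.3 times sampling noise (chi-square over degrees of freedom), where replicates 2 and 3 differed by 2.40 times in control and 2.69 times in MLL1 KD cells. Results of the MLL1 experiment are therefore also given with the replicate number as a block and from replicates 2 and 3 alone.

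In control cells the level of the 10 transcripts spanned the range from nearly absent to highly expressed. The order by mean TPM in the MLL1 experiment was ST3GAL2 at 86.0 ± 4.92, B4GALT5 at 73.5 ± 22.8, NEU3 at 35.2 ± 5.68, B4GALT6 at 31.01 ± 1.62, UGCG at 12.2 ± 0.630, B4GALNT1 at 5.32 ± 0.895, ST8SIA1 at 2.21 ± 0.576, B3GALT4 at 1.49 ± 0.806, ST3GAL5 at 0.564 ± 0.268 and ST8SIA5 at 0.022 ± 0.038 (SD, n = 3). The library values of ST3GAL2 and B4GALT5 overlapped, as did those of NEU3 and B4GALT6, of ST8SIA1 and B3GALT4, and of B3GALT4 and ST3GAL5, while the other neighbours in this order did not. In the AF9 experiment NEU3 and B4GALT5 stood level at 64.0 TPM, with SDs of 0.143 and 0.145. UGCG followed at 56.7 ± 4.42, ST3GAL2 at 39.4 ± 1.74, B4GALT6 at 38.0 ± 5.22, B4GALNT1 at 3.23 ± 0.330, ST3GAL5 at 1.16 ± 0.136, B3GALT4 at 0.966 ± 0.306, ST8SIA1 at 0.231 ± 0.054 and ST8SIA5 at 0.011 ± 0.016 (SD, n = 2). Here NEU3 overlapped B4GALT5, ST3GAL2 overlapped B4GALT6, and ST3GAL5 overlapped B3GALT4. The order and overlaps in the AF9 experiment depend on the gene length used. By the longest transcript NEU3 was at 54.07 TPM, above UGCG at 45.42 and B4GALT5 at 44.45 TPM, and the library values of UGCG and B4GALT5 overlapped. Transcripts of both lactosylceramide synthases were thus abundant in both experiments, and ST3GAL5, the only member that makes GM3, was among the lowest. The value of ST3GAL5 depends on the length used, because its merged exons measure 16300 bases and its longest transcript 6180, and by the longest transcript it was 1.12 TPM in the MLL1 and 2.13 TPM in the AF9 experiment.

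**Figure D1:**
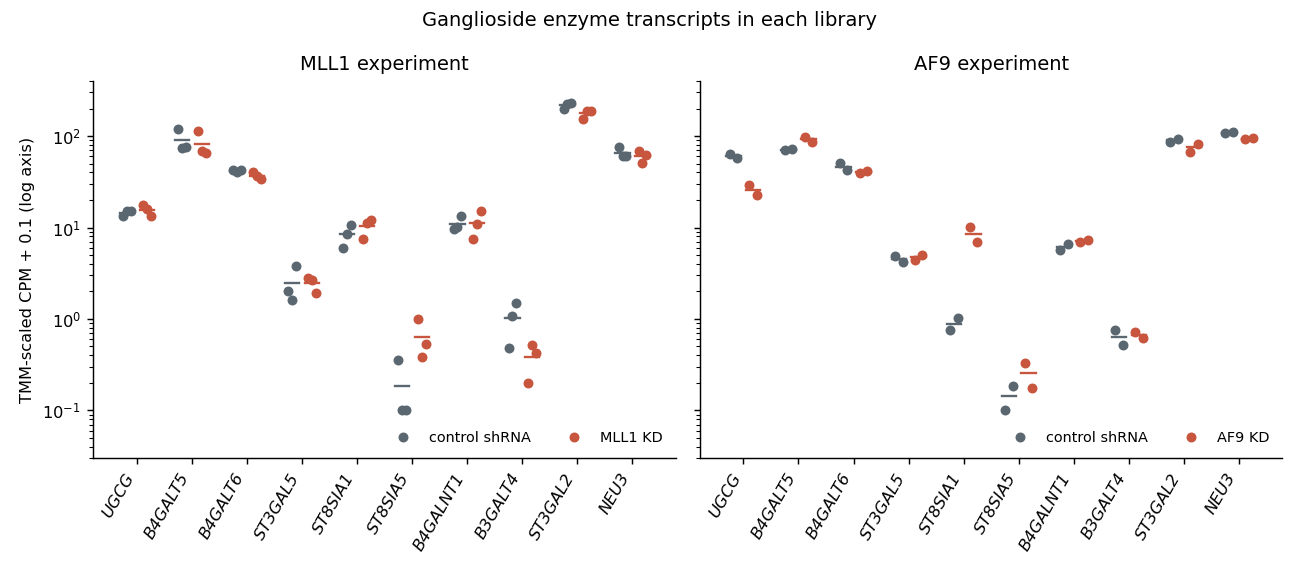
TMM-scaled CPM plus 0.1 on a log axis of the 10 ganglioside enzyme genes, ordered by their step in the pathway, in each library of the MLL1 experiment (left, 3 control and 3 MLL1 KD libraries) and the AF9 experiment (right, 2 and 2). Points are libraries and bars are group means. In the AF9 experiment the ST8SIA1 points of the groups lie furthest apart, with KD at 6.81 and 9.98 CPM over control at 0.653 and 0.923 CPM.

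ST8SIA1, the GD3 synthase, was among the least expressed tested genes in control cells of the AF9 experiment, with 0.231 TPM, and reached 2.65 TPM in AF9 KD cells. It had 9 and 11 counts in the control libraries and 129 and 91 counts in the AF9 KD libraries, which is 0.653 and 0.923 CPM against 9.98 and 6.81 CPM. Both KD libraries lay above both control libraries. Groups that did not overlap were common in this experiment, at 66% of all genes tested, and 7 of the 9 tested members were among them. The means were 0.788 ± 0.191 and 8.39 ± 2.24 CPM (SD, n = 2 each), a 10.6-fold difference with a log2 fold change of 3.41 (SE 0.34). This was the rise at position 16 among the 13333 genes tested in this experiment, and it was the value on which the set was chosen. Its mean TPM over the 4 libraries was 1.44, so it passed the level filter through the AF9 KD libraries, since control cells had 0.231 TPM.

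UGCG, which makes glucosylceramide and so feeds every later step, went the other way. Its counts were 879 and 690 in control and 372 and 303 in AF9 KD libraries, or 63.8 and 57.9 against 28.8 and 22.7 CPM, and the groups did not overlap. AF9 KD cells held 42.3% of the control level, with a log2 fold change of -1.24 (SE 0.13). B4GALT5, the next enzyme, had 70.7 and 71.4 CPM in control and 97.0 and 86.3 CPM in AF9 KD libraries, a log2 fold change of 0.37 (SE 0.10) that stayed under 1.5-fold. B4GALT6, which catalyzes the same step, had 50.3 and 41.9 CPM in control and 39.2 and 41.4 CPM in KD libraries, with a log2 fold change of -0.20 (SE 0.12).

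ST3GAL5, which makes the substrate of ST8SIA1, had 4.79 and 4.11 CPM in control and 4.33 and 4.94 CPM in AF9 KD libraries, overlapping groups with a log2 fold change of 0.05 (SE 0.24). B4GALNT1, which competes with ST8SIA1 for GM3, had 5.51 and 6.46 CPM in control and 6.81 and 7.18 CPM in KD libraries (log2 fold change 0.23, SE 0.21). For the enzymes that act later, the log2 fold change was -0.26 (SE 0.11) for ST3GAL2, which caps the chain of GM1 to give GD1a, and 0.07 (SE 0.58) for B3GALT4, which makes GM1 and had only 5 to 9 counts per library. ST8SIA5, which builds the more highly sialylated gangliosides, had 0 and 1 counts in control and 3 and 1 in KD libraries and could not be tested. NEU3, the sialidase of the plasma membrane, had 108 and 109 CPM in control and 91.9 and 95.1 CPM in KD libraries (log2 fold change -0.21, SE 0.09).

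Of the 9 genes that passed the level filter in the AF9 experiment, 2 (ST8SIA1 higher and UGCG lower) met the criteria by which genes were called, beside 13.1% of all genes tested, and with offsets for GC content in the fit the same 2 did, beside 7.98%. The set was chosen on this comparison, so the count is no test of these genes and nothing is read from it. Their median log2 fold change was 0.05, beside 0.01 over all genes tested. Fold changes in AF9 KD cells rose with the GC content of the gene (Spearman's rho 0.480 across 13045 genes, which are not independent replicates, and -0.069 in MLL1 KD). ST8SIA1 (40.4% GC) and UGCG (39.3%) lie at the AT-rich end, where the median of all genes was slightly below 0, and with the offsets their log2 fold changes were 3.57 and -1.07. The offsets moved B4GALNT1 (57.0% GC) from 0.23 to -0.004, B4GALT6 (35.7%) from -0.20 to 0.03, B3GALT4 (59.4%) from 0.07 to -0.27 and ST3GAL2 (56.2%) from -0.26 to -0.47, so the directions of the first 3 depend on this choice. The part of GC content in these small differences was not tested.

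**Figure D2:**
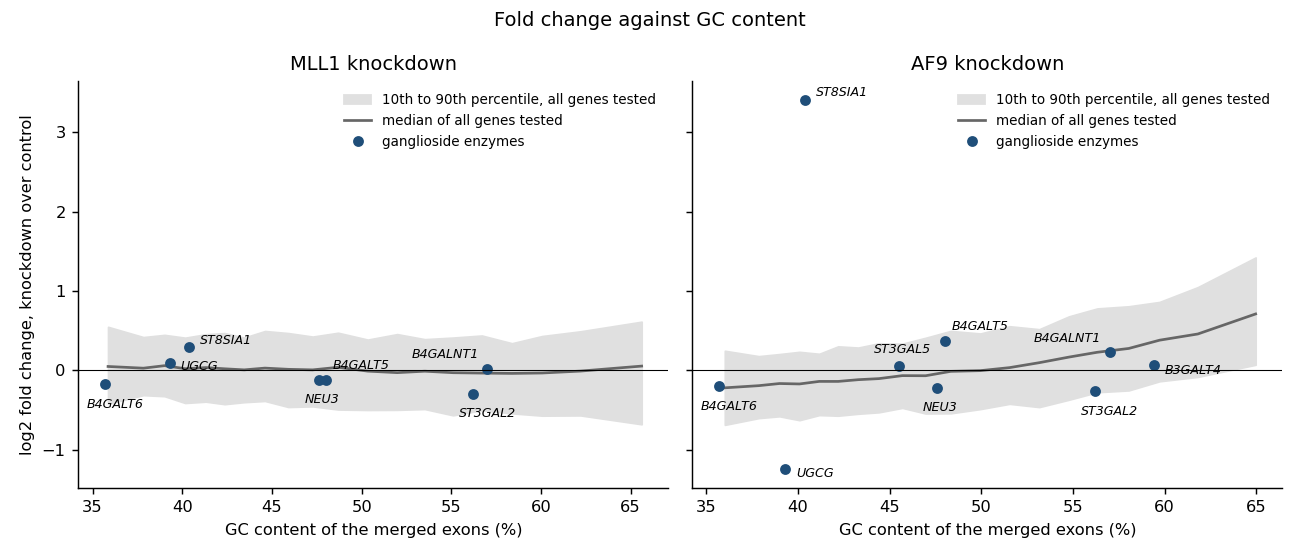
Log2 fold change of each tested ganglioside enzyme gene (points) against the GC content of its merged exons in percent, for MLL1 KD (left) and AF9 KD (right). The line is the median and the band the 10th to 90th percentile of all genes tested in 20 bins of GC content. In AF9 KD the median rises from -0.22 in the bin of lowest to 0.71 in the bin of highest GC content, and ST8SIA1 at 3.41 and UGCG at -1.24 lie outside the band.

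**Figure D3:**
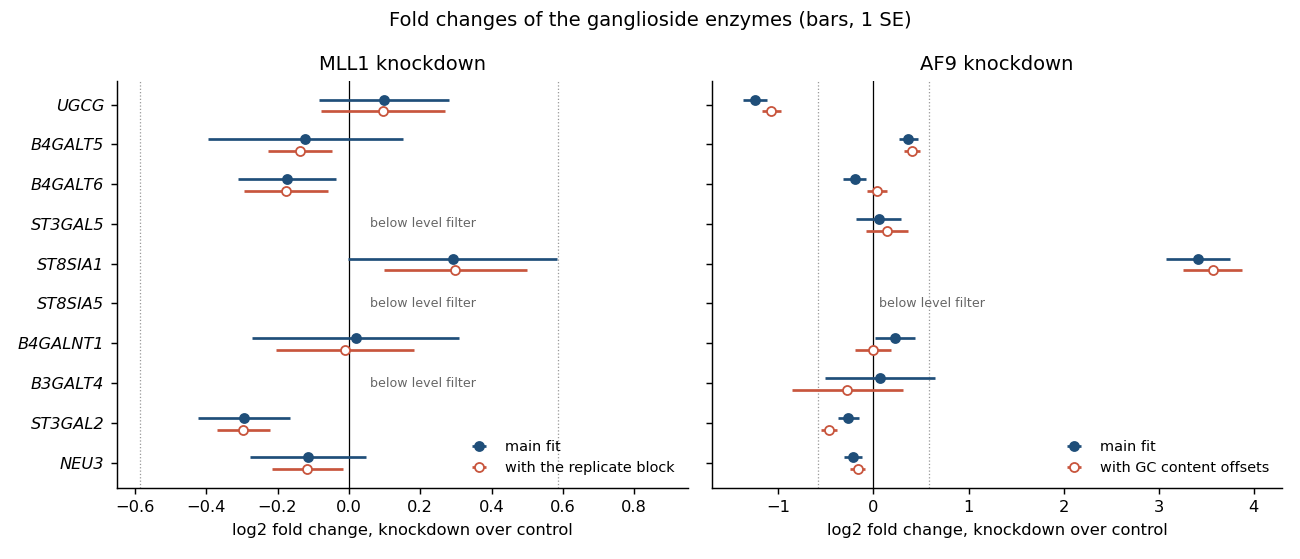
Log2 fold change of KD over control for the 7 genes tested in MLL1 KD (left) and the 9 in AF9 KD (right), with bars of 1 SE. The other genes are listed as below the level filter. Filled points are the fit described in the text, and open points the fit with the replicate block (left) or with GC content offsets (right), and dotted lines mark a 1.5-fold change. All points of MLL1 KD lie inside the dotted lines, and in AF9 KD ST8SIA1 and UGCG lie outside.

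In MLL1 KD cells none of the 7 genes that could be tested was called, where 0.0625% of all 14394 genes tested were called. With the replicate block 0 of 7 were called, where 4.73% of all genes tested were. From replicates 2 and 3 alone again 0 of 7 were called, beside 696 of all 14394 genes tested. At an unadjusted edgeR p value under 0.05 the count was 0 of 7, with ST3GAL2 at 0.0530, beside 1435 of all 14394 genes tested. DESeq2 on the same genes also called 0 of 7, beside 232 of all genes tested. With only 7 members, these counts do not set them apart from all genes. Their median log2 fold change was -0.11, beside 0.01 over all genes tested.

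ST8SIA1 had 46, 61 and 83 counts in control and 75, 79 and 111 counts in MLL1 KD libraries. This is 5.94, 8.44 and 10.6 CPM against 7.43, 11.2 and 12.0 CPM, so the groups overlapped. The log2 fold change was 0.29 with a 95% interval from -0.39 to 0.97 and an adjusted p value of 0.830 in edgeR's quasi-likelihood test, and with the block it was 0.30 with an adjusted p value of 0.378. The interval includes no change and a rise of nearly 1 on the log2 scale. The difference between the 2 knockdowns was not tested.

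UGCG had 13.2, 15.1 and 15.2 CPM in control and 17.3, 15.7 and 13.4 CPM in MLL1 KD libraries, which overlapped. Its log2 fold change of 0.10 (95% interval -0.33 to 0.52, edgeR adjusted p 0.928) turned to -0.06 when only replicates 2 and 3 were used. B4GALT5 ran at 118 and 114 CPM in replicate 1 of the control and MLL1 KD cells and at 64.7 to 76.3 CPM in the other 4 libraries, so that it differed between replicate 1 and the others more than between the groups. Its log2 fold change was -0.12 (95% interval -0.76 to 0.51), and its SE fell from 0.27 to 0.09 with the block. NEU3 was likewise highest in replicate 1 of each group, at 75.5 and 68.7 CPM.

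ST3GAL2 was the only tested member whose groups did not overlap in MLL1 KD, as was so for 17.7% of all genes tested. It had 198, 222 and 232 CPM in control and 155, 188 and 188 CPM in MLL1 KD libraries. The log2 fold change was -0.29 (95% interval -0.59 to 0.005, edgeR adjusted p 0.509). Once the replicate number was a block, the adjusted p value was 0.0119 at a log2 fold change of -0.30, and from replicates 2 and 3 alone it was 1.7e-04 at -0.27. The fold stayed under 1.5 in every setting, so it was never called. In AF9 KD cells its 2 libraries at 67.6 and 82.7 CPM lay below both controls at 86.8 and 93.6 CPM. Groups did not overlap for 66% of all genes tested in that experiment. By TPM the groups of ST3GAL2 overlapped there, with 31.5 and 39.3 in AF9 KD and 38.15 and 40.6 in control libraries.

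The remaining tested members had intervals on both sides of 0 in MLL1 KD, with log2 fold changes of 0.02 for B4GALNT1 (-0.66 to 0.70), -0.17 for B4GALT6 (-0.49 to 0.15) and -0.11 for NEU3 (-0.49 to 0.26). The other 3 genes had a mean TPM under 1 and were not tested there. ST8SIA5 had 2, 0 and 0 counts in control and 9, 2 and 4 in MLL1 KD libraries, which do not overlap as CPM. B3GALT4 had 3, 7 and 11 against 1, 3 and 3 counts, and ST3GAL5 had 15, 11 and 29 against 27, 18 and 17 counts.

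Because several of these enzymes share a substrate or act in sequence, the ratio of their transcripts was taken within each library. The ratio of ST8SIA1 to ST3GAL5, by TPM, was 0.154 and 0.253 in the control libraries of the AF9 experiment and 2.59 and 1.55 in AF9 KD, but by the longest transcript ST8SIA1 at 2.24 TPM stayed below ST3GAL5 at 2.55 TPM in AF9 KD replicate 2. That of B4GALNT1 to ST8SIA1 was 15.5 and 12.9 in control and 1.25 and 1.94 in AF9 KD. UGCG to B4GALT5 went from 0.933 and 0.838 to 0.307 and 0.272, and B4GALT5 to B4GALT6 from 1.54 and 1.86 to 2.71 and 2.28. No ratio overlapped between the groups of the AF9 experiment, where the groups of 66% of all genes tested did not overlap either. The share among ratios of other genes was not taken, so nothing is read from this. In the MLL1 experiment ST8SIA1 was above ST3GAL5 in all libraries, by 3.22 to 6.24 in control and 3.13 to 7.35 in MLL1 KD. The ratio of B4GALNT1 to ST8SIA1 was 2.20 to 2.91 and 1.77 to 2.28. UGCG to B4GALT5 was 0.115 to 0.211 in control and 0.1575 to 0.240 in MLL1 KD, and B4GALT5 to B4GALT6 was 1.985 to 3.06 and 2.03 to 3.08. Each ratio overlapped between the groups of the MLL1 experiment. In the AF9 experiment the ratios with ST8SIA1 carry the value on which the set was chosen. All ratios are given without a test.

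**Figure D4:**
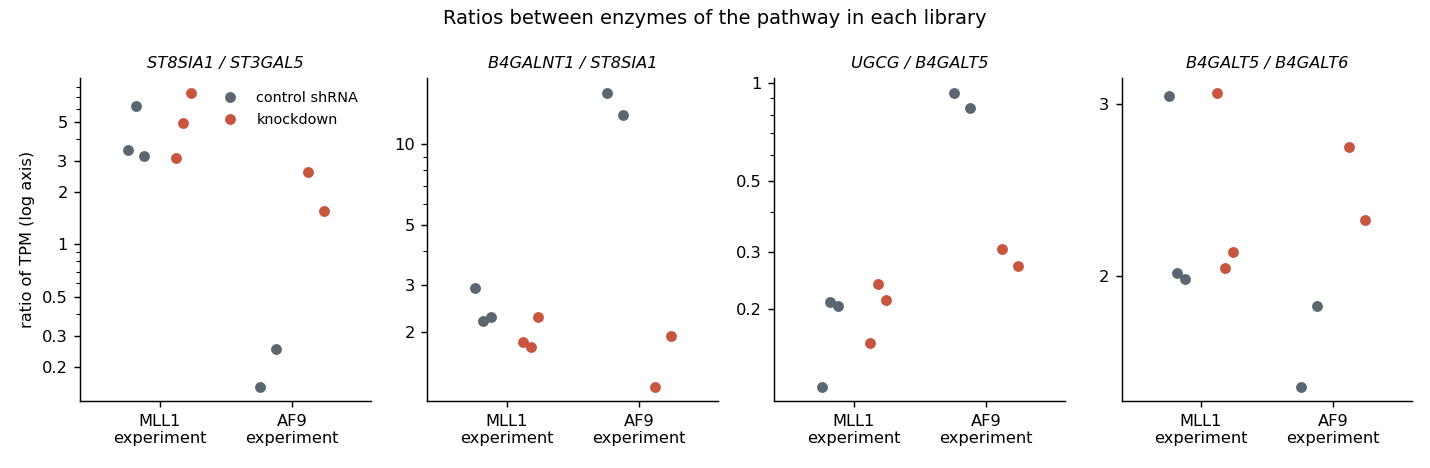
Ratio of the TPM of 2 ganglioside enzymes within each library, on log axes, for the MLL1 experiment (3 control and 3 KD libraries) and the AF9 experiment (2 and 2). Each point is a library. In the AF9 experiment ST8SIA1 / ST3GAL5 passes from 0.154 and 0.253 in control to 2.59 and 1.55 in KD libraries.

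The genes around the pathway were taken from 5 lists that held none of the 10 members. Their subjects were ceramide supply and other uses of ceramide, other glycosphingolipid series that start from lactosylceramide, and other sialyltransferases. The rest were sugar nucleotide supply with sialic acid O-acetylation, and glycosphingolipid breakdown. Of the 69 genes on the 5 lists 51 could be tested in AF9 KD and 52 in MLL1 KD. In AF9 KD cells 5 of the 51 were called, which is 9.8%, beside 13.1% of all genes tested.

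Among the other sialyltransferases 1 of 11 was called higher and 3 lower in AF9 KD, beside 1069 higher and 675 lower of all 13333 genes tested. The median log2 fold change of the list was -0.22, or -0.29 with GC offsets, beside 0.01 over all genes tested. ST8SIA4, which builds polysialic acid on proteins, fell from 20.7 and 22.6 to 9.28 and 8.08 CPM (log2 fold change -1.32, SE 0.16, edgeR adjusted p 1.0e-04). ST8SIA6, another α2,8-sialyltransferase, fell from 147 and 134 to 85.6 and 85.5 CPM (-0.72, SE 0.10, adjusted p 2.0e-04). ST3GAL1, which sialylates O-glycans, fell from 153 and 157 to 88.5 and 102 CPM (-0.70, SE 0.10, adjusted p 2.8e-04), and ST6GALNAC4 rose from 10.1 and 14.4 to 20.3 and 21.7 CPM (0.78, SE 0.17, adjusted p 0.0045).

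The list of other series that start from lactosylceramide had 3 tested genes, and not all of them act on lactosylceramide itself. GBGT1, the homolog of the Forssman synthase, rose from 52.6 and 49.6 to 90.4 and 94.8 CPM in AF9 KD (0.86, SE 0.10, edgeR adjusted p 7.9e-05). B3GNT5, which opens the lacto-series, went from 24.7 and 28.5 to 41.4 and 36.0 CPM (0.54, SE 0.13, adjusted p 0.0073), under 1.5-fold. None of the 9 tested genes of sugar nucleotide supply and sialic acid O-acetylation was called, with a median log2 fold change of -0.28, or -0.12 with GC offsets. CMAS, which activates sialic acid for all sialyltransferases, had a log2 fold change of -0.28 (edgeR adjusted p 0.0453), under 1.5-fold. With GC offsets it was -0.14 (edgeR adjusted p 0.214). None of 14 ceramide genes and none of 14 breakdown genes was called, with median log2 fold changes of -0.10 and -0.06, or 0.004 and -0.12 with GC offsets. With GC offsets GBGT1, ST6GALNAC4 and ST8SIA6 were no longer called, at 0.52, 0.26 and -0.55, while ST8SIA4 at -1.09 and ST3GAL1 at -0.77 were. CERS2 at -0.62, B3GNT5 at 0.67 and ST6GALNAC1 at -0.60 were not called without the offsets but were with them, and are named after their values were seen.

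In MLL1 KD cells 0 of the 52 tested list genes were called. With the replicate block 5 of the 52 were called, which is 9.62%, beside 4.73% of all genes tested with the block. All 5 were lower, and they are named here after their values were seen. ST6GALNAC1, which makes the sialyl-Tn antigen, had 54.1, 70.1 and 65.2 CPM in control and 16.6, 37.3 and 39.0 CPM in MLL1 KD libraries (blocked log2 fold change -1.09, edgeR adjusted p 5.8e-05). B3GNT5 had 4.52, 4.84 and 4.20 against 1.78, 2.55 and 1.73 CPM (-1.18, adjusted p 0.0289). The other 3 were DEGS2 (-1.40, adjusted p 0.0083), ORMDL2 (-0.67, adjusted p 0.0138) and SLC35A2, the transporter of UDP-galactose into the Golgi (-0.61, adjusted p 0.0301). The groups of DEGS2 overlapped, with 4.26, 8.58 and 7.38 CPM in control and 0.891, 2.41 and 4.86 CPM in MLL1 KD libraries.

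**Figure D5:**
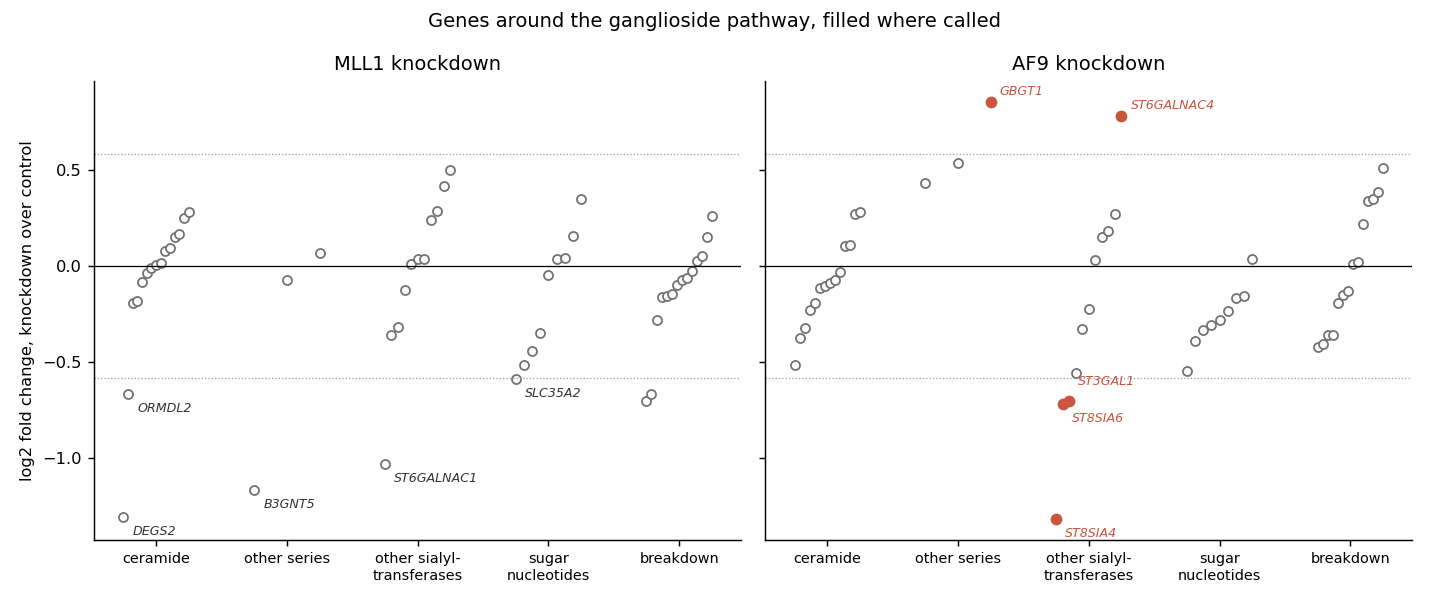
Log2 fold change of KD over control for each tested gene of the 5 lists around the ganglioside pathway, in MLL1 KD (left) and AF9 KD (right), sorted within each list. Filled points were called and dotted lines mark a 1.5-fold change, and names in dark grey on the left mark genes called only with the replicate block. In AF9 KD 2 of the 5 filled points lie above and 3 below 0, with ST8SIA4 lowest at -1.32.

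ST8SIA1 and UGCG are the 2 members with a fold change of at least 1.5 in AF9 KD. The 250 bases before the RefSeq start of each (GRCh38.p14) are given here. Capitals mark GGGCGG or its reverse complement CCGCCC, the GC box.
ST8SIA1: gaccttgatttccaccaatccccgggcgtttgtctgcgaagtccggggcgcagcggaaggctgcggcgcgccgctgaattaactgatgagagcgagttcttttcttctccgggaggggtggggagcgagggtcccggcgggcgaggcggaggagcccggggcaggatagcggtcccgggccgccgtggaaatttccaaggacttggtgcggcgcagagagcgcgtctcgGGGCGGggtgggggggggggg
UGCG: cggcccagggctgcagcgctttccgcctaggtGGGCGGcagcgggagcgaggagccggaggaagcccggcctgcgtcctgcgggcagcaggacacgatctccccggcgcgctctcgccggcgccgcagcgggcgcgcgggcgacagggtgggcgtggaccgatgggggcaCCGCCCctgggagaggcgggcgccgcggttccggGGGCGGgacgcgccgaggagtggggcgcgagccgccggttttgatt
The first is chr12:22334708-22334957 on the - strand and the second chr9:111896564-111896813 on the + strand. The RefSeq start of ST8SIA1 lies inside the gene model used here for its length, which runs to chr12:22437041. Which start is used in HEL cells was not tested. ST8SIA1 holds 28 CG dinucleotides and 1 GC box, UGCG 39 and 3, where the median over 35116 RefSeq promoters of the same length was 11 CG dinucleotides and 42.6% held a GC box on either strand. Neither holds a TATA box, searched as TATAAA on both strands and found in 10.7% of all promoters. The motif of GATA factors, searched as AGATAA on both strands and found in 9.17%, has no match in either. Entries were matched for 5 of the 10 genes.

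ST8SIA1 (ENSG00000111728) spans chr12:22063773-22437041 on the - strand, and its end overlaps that of CMAS at chr12:22046218-22065674 on the + strand. Reads were counted by strand, and 4.15% of the 31-base words in its canonical transcript also occur in transcripts of other genes. Within 300 kb of ST8SIA1, KCNJ8, C2CD5, CMAS and ETNK1 could be tested, and none was called in either experiment. Their log2 fold changes in AF9 KD were -0.33, -0.21, -0.28 and -0.11, and with GC offsets -0.30, -0.03, -0.14 and 0.13. Of all genes tested, the 3 nearest to ST8SIA1 over the 4 libraries of the AF9 experiment were LGALS3BP, FAM238B and PPP1R16A, at distances of 0.663, 1.05 and 1.09 between centred log2 CPM values. LGALS3BP, a secreted glycoprotein, had 5 and 7 counts in control and 50 and 62 in AF9 KD libraries. FAM238B had 1 and 5 against 26 and 19 counts, and PPP1R16A 14 and 28 against 105 and 107. These 3 genes were picked by their values in the same libraries, so nothing is read from their rises. Their GC content was 61.0%, 66.4% and 65.9%, where that of ST8SIA1 was 40.4%, and the part of GC content in their rises was not tested.

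Markers of other cells were followed beside these values. The summed erythroid markers were 11160 and 11180 CPM in control and 7472 and 9342 CPM in AF9 KD libraries. Of the 11 tested there 2 were called lower, beside 675 of all 13333 genes tested, and nothing is read from this count. In the MLL1 experiment the erythroid sums were 1395 to 1607 CPM in control and 1178 to 1236 CPM in MLL1 KD libraries. The 5 neuroectodermal markers summed to 2.43 to 3.34 CPM in control and 3.63 to 4.71 CPM in AF9 KD libraries, with SOX10 and ELAVL4 at 0 in all 4. The monocyte markers summed to 86.8 and 93.2 CPM in control and 64.4 and 72.5 CPM in AF9 KD libraries, with CD14 at 0, and to 21.2 to 26.1 and 12.7 to 21.6 CPM in the MLL1 experiment. The megakaryocyte markers summed to 2223 to 2434 CPM in control and 1833 to 2126 CPM in MLL1 KD libraries, and to 1309 to 1442 and 1280 to 1625 CPM in the AF9 experiment. The lymphocyte markers, of which 2 of 6 could be tested, summed to 10.7 to 14.9 CPM in control and 21.9 to 23.3 CPM in MLL1 KD libraries. They stayed at or below 9.82 CPM in the AF9 experiment. In the MLL1 experiment the erythroid, megakaryocyte and lymphocyte sums did not overlap between groups, as was so for 17.7% of all genes tested. Fibroblast markers stayed at or below 0.374 CPM in the AF9 experiment and lay at up to 17.1 CPM in MLL1 KD cells. None of the tested monocyte or lymphocyte markers was called in either experiment. The part of these marker sums in the values of the ganglioside enzymes was not tested, and in these bulk libraries fewer cells of a type and less RNA per cell cannot be told apart.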

How the data were processed

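RNA-seq was analysed for 10 libraries of HEL cells, and the other assays of the series were not analysed here. The authors filtered reads with fastp 0.13.1, mapped them to hg38 with HISAT2 2.1.0 and counted them by gene and strand with featureCounts 1.6.1, and they deposited raw counts per gene. The annotation behind the symbols is not given in the sources used here. Nothing says that replicates came from separate cultures, so p values may measure technical spread only.

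Each table was fitted alone with edgeR 4.0.16 (TMM, glmQLFit and glmQLFTest, two-sided, Benjamini-Hochberg adjustment over all genes tested), with DESeq2 1.42.0 as an alternative, in R 4.3.3. Scripts were tested on simulated data. Gene length, GC content and coordinates came from GENCODE version 44, in which 92.3% of symbols were matched. GC offsets came from a lowess trend (span 0.3) per library.

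The genes named are the 10 members, KMT2A, MLLT3, the called genes of each list whose libraries do not overlap (at most 4), tested genes within 300 kb of ST8SIA1 and the 3 nearest to it in profile (prior count 2), and exceptions are marked. Members and lists were chosen with earlier results of these data known, and some genes are not reported here. Same-numbered libraries of the MLL1 experiment deviated together from their group means, with correlations of 0.648, 0.326 and 0.352, so the numbers were taken to pair the libraries. Between replicates 2 and 3 of opposite groups they were 0.369 and 0.360, so the block separates replicate 1 and does not order the other two. Alternatives were other size factors, other filters and thresholds, DESeq2, the replicate block, GC offsets, other gene lengths and each library left out in turn.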

Additional observations from a re-analysis of the deposited data

Results flagged for a closer look

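None of the 7 members tested in both experiments lay on opposite sides of its controls in MLL1 KD and AF9 KD with every library apart. Of the 51 list genes tested in both, 4 did, as did 672 (5.28%) of all 12731 genes tested in both, and the difference between the knockdowns was not tested for any of them. B3GNT5 was lower in MLL1 KD (log2 fold change -1.17) and higher in AF9 KD (0.54). ORMDL3, a regulator of ceramide synthesis, was at -0.19 in MLL1 KD and 0.28 in AF9 KD. ORMDL1 was at 0.25 in MLL1 KD and -0.23 in AF9 KD, and UGP2, which makes UDP-glucose, at 0.35 and -0.17. None of these 4 genes was called in either experiment in the main fit. With GC offsets the AF9 KD values were 0.67 for B3GNT5, 0.11 for ORMDL3, -0.009 for ORMDL1 and -0.02 for UGP2. The AF9 KD side of the last 3 therefore depends on this choice.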

How the results depend on the processing

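The calls of the members did not depend on the setting in MLL1 KD (0 in each), and in AF9 KD ST8SIA1 kept log2 fold changes of 3.11 to 3.67 and UGCG of -1.42 to -1.07 wherever they were tested. With a mean TPM of at least 5 ST8SIA1 was not tested, and 1 member was called, and with no fold change threshold B4GALT5 was the 1 added, for 3. Of 118 alternative log2 fold changes of members in MLL1 KD, 7 had the opposite sign. B4GALNT1 was at -0.0099 with the replicate block and between -0.26 and 0.24 with 1 library left out, UGCG at -0.0649 from replicates 2 and 3 alone, and B4GALT5 between -0.43 and 0.13 with 1 library left out.

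The count of all genes called in MLL1 KD, 9, was 232 with DESeq2 on the same genes, 213 with DESeq2 on all genes, 32 with no filter beyond 1 count, 681 with the replicate block, 675 with the block and GC offsets, 696 from replicates 2 and 3 alone, and 0 to 53 with 1 library left out, where 53 was reached without replicate 1 of MLL1 KD. List genes called there were 5 with the block, 5 with block and GC offsets and 6 from replicates 2 and 3 alone. In AF9 KD the 1744 genes called became 3862 with no fold change threshold, 510 at a fold change of at least 2, 1064 with GC offsets and 1052 to 1998 with 1 library left out, lowest without control replicate 1. The 5 list genes called became 17 with no fold change threshold, 1 when a 2-fold change was required, and 5 to 9 with 1 library left out, highest without AF9 KD replicate 2. In the AF9 experiment same-numbered libraries shared only a number (correlation 0.156), and pairing them as a block left ST8SIA1 at 3.42 and UGCG at -1.25.

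The controls of the AF9 experiment held 9 and 11 counts of ST8SIA1, so counting error alone is large there. With 2 libraries a group no single gene can reach an exact p value under 0.333. Each knockdown rests on 1 shRNA. Levels of enzymes or gangliosides were not measured.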

Other observations

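The control cells of the 2 experiments did not stand at the same level for ST8SIA1 and UGCG. ST8SIA1 had 8.32 ± 2.32 CPM (SD, n = 3) in the controls of the MLL1 experiment and 0.788 ± 0.191 CPM (SD, n = 2) in those of the AF9 experiment, and AF9 KD cells at 8.39 ± 2.24 CPM stood where the MLL1 controls did. UGCG had 14.5 ± 1.12 CPM in the MLL1 controls, 60.8 ± 4.17 CPM in the AF9 controls and 25.7 ± 4.32 CPM in AF9 KD cells. ST3GAL2 was at 217 ± 17.3 and 90.2 ± 4.83 CPM in the 2 sets of controls. The summed erythroid markers were 1395 to 1607 CPM in the MLL1 controls and 11160 to 11180 CPM in the AF9 controls. The tables were scaled separately, no library links them, and cells, shRNA and sequencing cannot be told apart between them, so these values were not tested.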
